A study of Gallus gallus with 6 samples.

Results

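The genes described here encode glycoproteins of the extracellular matrix, together with a few proteins of the fibroblasts and tendon cells that make them. Their RNA was measured in breast muscle (pectoral muscle) taken from female chicks of broiler stock aged 35 days. Members were chosen by gene symbol. Of 39 named genes, 36 were found in the deposited table of 20943 genes, and 34 had a mean of at least 1 FPKM (a level per unit of gene length and of library size) and were tested. TNXB, EFEMP2 and EMILIN1 were not matched by name and were not analysed here. FBN2 (mean 0.731 FPKM) and HAPLN1 (0.00516 FPKM) were in the table but under the minimum, and the lowest tested member was THBS4, at 2.15 FPKM. The vitamin E birds received a basal diet with 100 IU/kg of vitamin E as DL-α-tocopheryl acetate, and the control birds received the same diet with 0 IU/kg of added vitamin E. How much vitamin E the basal diet itself held is not stated in the labels. Both groups are chicks of 1 sex and 1 age, with 3 poly(A)-selected libraries each. The labels speak of tissue samples and do not say whether each came from its own bird, so the p-values reflect only how far these samples differ among themselves, which may be technical.

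Muscle fibres are wrapped in layers of connective tissue that carry force to the tendon and give meat its background toughness. Fibroblasts in these layers secrete collagen and the glycoproteins that bind collagen, cells and each other. Fibronectin, periostin and SPARC sit around collagen fibres, fibrillins and microfibril proteins form the scaffold on which elastin is laid down, and matricellular proteins such as tenascin-C, CTGF and CYR61 act as signals to cells more than as structure. In bulk muscle RNA, more fibroblasts and more RNA per fibroblast cannot be told apart.

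Library totals worked out from the FPKM values were 14161399, 14838400 and 15288812 reads with vitamin E, against 25477341, 17203041 and 16239948 reads in controls. Every vitamin E total was under every control total. Reads recovered for genes made up 99.8% of each total, so these may not be all reads sequenced. Tested members rested on between 63 and 24712 reads in a library, so counting error is a larger part of the spread in the members with few reads. On the first principal component of all tested genes (38.4% of the variance) control replicate 1 stood apart, at -34.4, and on the second control replicate 3 did, at -26.4. Where a member's unadjusted p under 0.05 was lost without either of these libraries, this is stated beside it. ACTA1, the skeletal muscle actin gene, was at 22897 to 33723 FPKM with vitamin E and 29497 to 37440.3 FPKM in controls. Such levels go with skeletal muscle but cannot tell breast muscle from other muscles.

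Most of these genes had higher values in the vitamin E libraries, but none passed the test over all genes. With limma on log2(FPKM + 1), 0 of 34 members had an adjusted p under 0.05, as did 0% of the 11320 genes tested, and the smallest adjusted p among the members was 0.133. At an unadjusted p under 0.05, 17 of 34 members were higher with vitamin E (50%), where 5.97% of all tested genes were, and 27 of 34 had a log2 difference above 0, where 54.2% of all tested genes did. Only CTGF was lower (1 of 34), where 3.14% of all tested genes were. The lowest vitamin E library exceeded the highest control in 9 members (26.5%), against 8.86% of all tested genes. The highest vitamin E library was below the lowest control in 1 member (2.94%), against 5.72%. The median log2 difference of the tested members was 0.52, and that of all tested genes was 0.02. The members were chosen with earlier results of these data known, so these counts describe the list and test nothing about it.

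The count of higher members depended on which libraries were kept. With vitamin E replicate 1, 2 or 3 left out, 4, 8 and 17 of 34 members were higher at that mark, where 4.28%, 3.90% and 6.23% of all tested genes were. With control replicate 1, 2 or 3 left out, 13, 18 and 5 of 34 members were, where 5.47%, 8.32% and 3.90% of all tested genes were. SPON1, PAPSS2, PDGFRL and MATN2 stayed at an unadjusted p under 0.05 without each of the 6 libraries in turn, and the other 14 of the 18 members lost that mark without at least 1 library. The lowest vitamin E value exceeded the highest control value in 20 of 34 members with vitamin E replicate 3 left out, against 17.5% of all tested genes. With control replicate 2 left out it did so in 18 of 34 members, against 18.8%. Lower members at an unadjusted p under 0.05 numbered 0 with vitamin E replicate 1 or 2 or control replicate 1 left out, 2 with vitamin E replicate 3 (2.48% of all tested genes) or control replicate 3 (3.65%) left out, and 3 with control replicate 2 left out (5.42%). The highest vitamin E value was below the lowest control value in 2 members with vitamin E replicate 3 (9.10% of all tested genes) or control replicate 3 (11.1%) left out, and in 3 with control replicate 2 left out (12.9%).

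**Figure D1:**
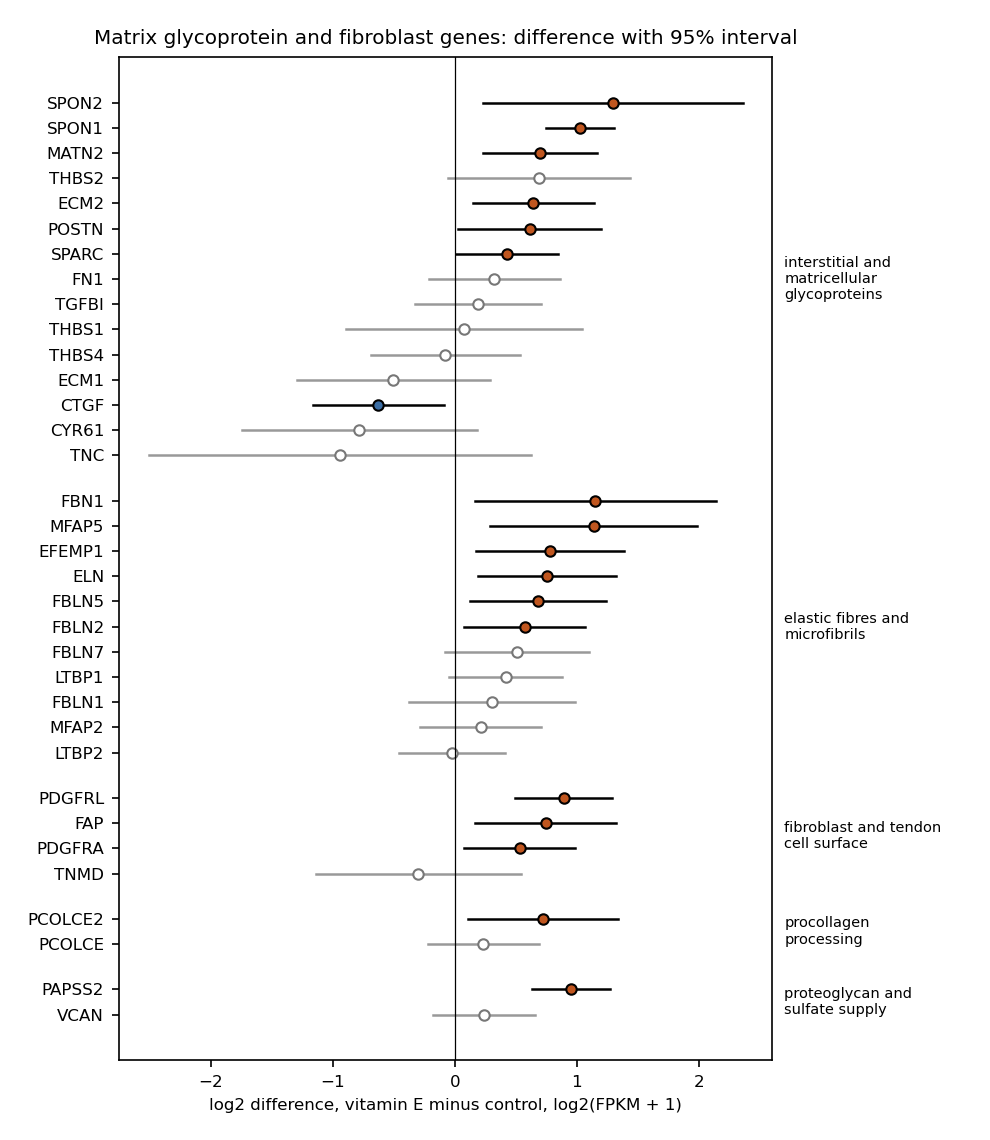
Log2 difference (vitamin E minus control, on the log2(FPKM + 1) scale) of each of the 34 tested members, with its 95% interval from limma, grouped by role. Filled points have an unadjusted p under 0.05 (orange higher, blue lower with vitamin E) and open points do not; SPON1 and PAPSS2 have narrow intervals well above 0, and CTGF is the only filled point below it.

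SPON1 and SPON2 encode spondins, secreted proteins of the F-spondin family, of which F-spondin was first described as a guide for growing axons. SPON1 (chromosome 5, 6396873 to 6557267) had 9.72, 9.28 and 7.80 FPKM in the vitamin E libraries, against 3.63, 4.07 and 3.91 FPKM in controls. Every vitamin E library stood well above every control, and the controls lay close together. Its log2 difference was 1.03 ± 0.12 (SE; limma, adjusted p = 0.133), the fourth smallest p of all 11320 genes, and without single libraries it stayed between 0.97 and 1.11. SPON2 had 41.6, 29.3 and 18.4 FPKM with vitamin E, against 5.71, 21.1 and 10.5 FPKM in controls. It was spread widely in both groups, and vitamin E replicate 3 lay inside the control range. Its log2 difference of 1.29 ± 0.45 was the largest among the members on this scale with all libraries (limma, adjusted p = 0.470). It was 0.88 without control replicate 1, 1.26 without control replicate 3 and 1.74 without control replicate 2. SPON2 had no unadjusted p under 0.05 without control replicate 1 or 3, or without vitamin E replicate 1 or 2. By the ratio of mean FPKM, PAPSS2 (2.59) and FBN1 (2.47) exceeded SPON2 (2.39).

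MATN2 and ECM2 encode adaptor proteins of the matrix. Matrilin-2 links matrix fibres in many connective tissues. MATN2 (chromosome 2, 127967394 to 128025240) had 3.43, 3.93 and 2.59 FPKM with vitamin E, against 1.79, 2.17 and 1.07 FPKM in controls. ECM2 had 24.9, 28.6 and 19.0 FPKM with vitamin E, against 11.2, 17.7 and 16.6 FPKM in controls. In both genes the groups did not overlap, by a small margin in ECM2. Their log2 differences were 0.70 ± 0.20 and 0.64 ± 0.21 (SE), with adjusted p values of 0.387 and 0.446 in limma. ECM2 had no unadjusted p under 0.05 without vitamin E replicate 1 and none without vitamin E replicate 2.

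The abundant glycoproteins around collagen fibres were led by SPARC, a collagen-binding protein of bone and connective tissue that was the most abundant member and made up between 55.9% and 63.4% of the members' summed FPKM in every library. SPARC had 1598, 1521 and 1155 FPKM with vitamin E, against 964, 1260.3 and 952 FPKM in controls. Control replicate 2 stood above vitamin E replicate 3, so the groups overlapped. POSTN, which encodes periostin, a protein that promotes collagen cross-linking, had 283, 223 and 275 FPKM with vitamin E, against 169, 239 and 119 FPKM in controls. Again control replicate 2 was above the lowest vitamin E library. The log2 differences were 0.43 ± 0.18 for SPARC and 0.61 ± 0.25 for POSTN (SE; limma, adjusted p = 0.540 and 0.528). SPARC ranged from 0.34 to 0.57 and POSTN from 0.36 to 0.86 without single libraries. Neither had an unadjusted p under 0.05 without control replicate 1 or 3, or without vitamin E replicate 1. SPARC also lost that mark without vitamin E replicate 2, and POSTN without vitamin E replicate 3.

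FN1, which encodes fibronectin, an adhesive protein that cells bind through integrins, had 83.4, 90.3 and 50.7 FPKM with vitamin E, against 67.3, 54.9 and 52.3 FPKM in controls. Vitamin E replicates 1 and 2 were the highest libraries and vitamin E replicate 3 was the lowest of all 6. On the log2 scale FN1 differed by 0.32, with a 95% interval from -0.22 to 0.86. The difference was 0.58 without vitamin E replicate 3, where it had an unadjusted p under 0.05, and 0.17 without vitamin E replicate 2. TGFBI, which encodes an adhesion protein induced by TGF-beta, averaged 32.5 ± 1.10 FPKM with vitamin E and 29.2 ± 8.67 FPKM in controls (SD, n = 3 each). ECM1, which encodes a secreted matrix protein, averaged 3.38 ± 1.04 FPKM with vitamin E and 5.52 ± 2.75 FPKM in controls (SD, n = 3 each), and its 95% interval on the log2 scale ran from -1.30 to 0.29. Neither gene had an unadjusted p under 0.05, but ECM1 did, as a lower member, with the replicate number or the description digit as a block and without control replicate 3 (-0.87). The description digit is part of the code in each sample's description. It is shared between libraries and may mark pens, but its meaning is not stated.

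The thrombospondins bind calcium, collagen and cell surfaces, and THBS4 is typical of tendon. THBS2 had 5.67, 3.12 and 4.12 FPKM with vitamin E, against 1.44, 4.24 and 1.63 FPKM in controls. Control replicate 2 lay inside the vitamin E range and the other 2 controls lay under it. The difference of THBS2 on the log2 scale was 0.69 ± 0.32 (SE; limma, adjusted p = 0.570). It was 1.04 without control replicate 2, where it had an unadjusted p under 0.05. THBS1, an activator of latent TGF-beta in mammals, averaged 21.4 ± 6.44 FPKM with vitamin E and 22.0 ± 13.4 FPKM in controls, and THBS4 averaged 2.01 ± 0.398 FPKM with vitamin E and 2.29 ± 1.10 FPKM in controls (SD, n = 3 each). The 95% intervals of their log2 differences were wide, from -0.89 to 1.04 for THBS1 and from -0.68 to 0.53 for THBS4, and the sign of both turned without single libraries.

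CTGF, CYR61 and TNC had lower mean levels with vitamin E, and only CTGF of these had an unadjusted p under 0.05 with all libraries. Lower levels were not a trait of their whole class. Among the interstitial and matricellular members, 10 of 15 tested genes had a log2 difference above 0, against 54.2% of all tested genes. CTGF and CYR61 (also named CCN2 and CCN1) encode short-lived signals that respond to TGF-beta and to mechanical load. CTGF had 17.2, 17.9 and 22.8 FPKM with vitamin E, against 42.6, 23.5 and 27.3 FPKM in controls. The groups did not overlap, though vitamin E replicate 3 and control replicate 2 differed little. Its log2 difference was -0.63 ± 0.23 (SE; limma, adjusted p = 0.479), and -0.38 without control replicate 1. CTGF had no unadjusted p under 0.05 without that control, or without vitamin E replicate 1 or 2. CYR61 had 13.6, 13.7 and 16.4 FPKM with vitamin E, against 41.5, 11.9 and 33.4 FPKM in controls. The vitamin E libraries lay close together, while the controls held both the highest values and the lowest. CYR61 differed by -0.78 ± 0.41 on the log2 scale (SE; limma, adjusted p = 0.609). Without control replicate 2 it differed by -1.31, with an unadjusted p under 0.05.

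TNC encodes tenascin-C, a glycoprotein of tendon and of healing tissue. It had 7.59, 8.91 and 9.52 FPKM with vitamin E, against 60.05, 6.91 and 12.1 FPKM in controls. Control replicate 1 stood far above the other 5 libraries, which ranged from 6.91 to 12.1 FPKM. The log2 difference was -0.94 ± 0.67 (SE) with all libraries and -0.08 without it. Without control replicate 2 the difference was -1.56, with an unadjusted p under 0.05. Control replicate 1 was the highest of all 6 libraries for CTGF, CYR61, THBS1, TGFBI and ECM1. It also had the highest mean over the YAP and TEAD pathway genes, at 0.36 on the log2 scale relative to the mean of all libraries. The other 5 libraries lay between -0.14 and -0.05 there. This was not particular to that list. The same library was also highest for the smooth muscle and pericyte (0.46), Schwann cell (0.45), TGF-beta (0.32) and matrix receptor (0.15) lists. It was under the mean in others, such as the fibroblast markers other than members (-0.32). YAP is a coactivator that works through the TEAD transcription factors, and CTGF and CYR61 are among their known targets. Of the 16 genes in the YAP and TEAD list, 0 were higher and 1 was lower at an unadjusted p under 0.05, against 5.97% and 3.14% of all tested genes. The lower gene was TEAD4, which had 47.5, 47.8 and 44.3 FPKM with vitamin E, against 58.7, 59.1 and 59.98 FPKM in controls (limma, adjusted p = 0.396). TEAD1 had the next smallest p, with a log2 difference of -0.34. The summed level of the 16 genes was 505, 687 and 787 FPKM with vitamin E, against 2116, 632 and 876 FPKM in controls. ANKRD1 alone gave 253, 418 and 523 FPKM of these sums with vitamin E, against 1798, 347 and 595 FPKM in controls. The high sum of control replicate 1 was thus mostly this gene. Without control replicate 1 the log2 difference of CYR61 was -0.44, and the part of this pathway in these values was not tested.

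**Figure D2:**
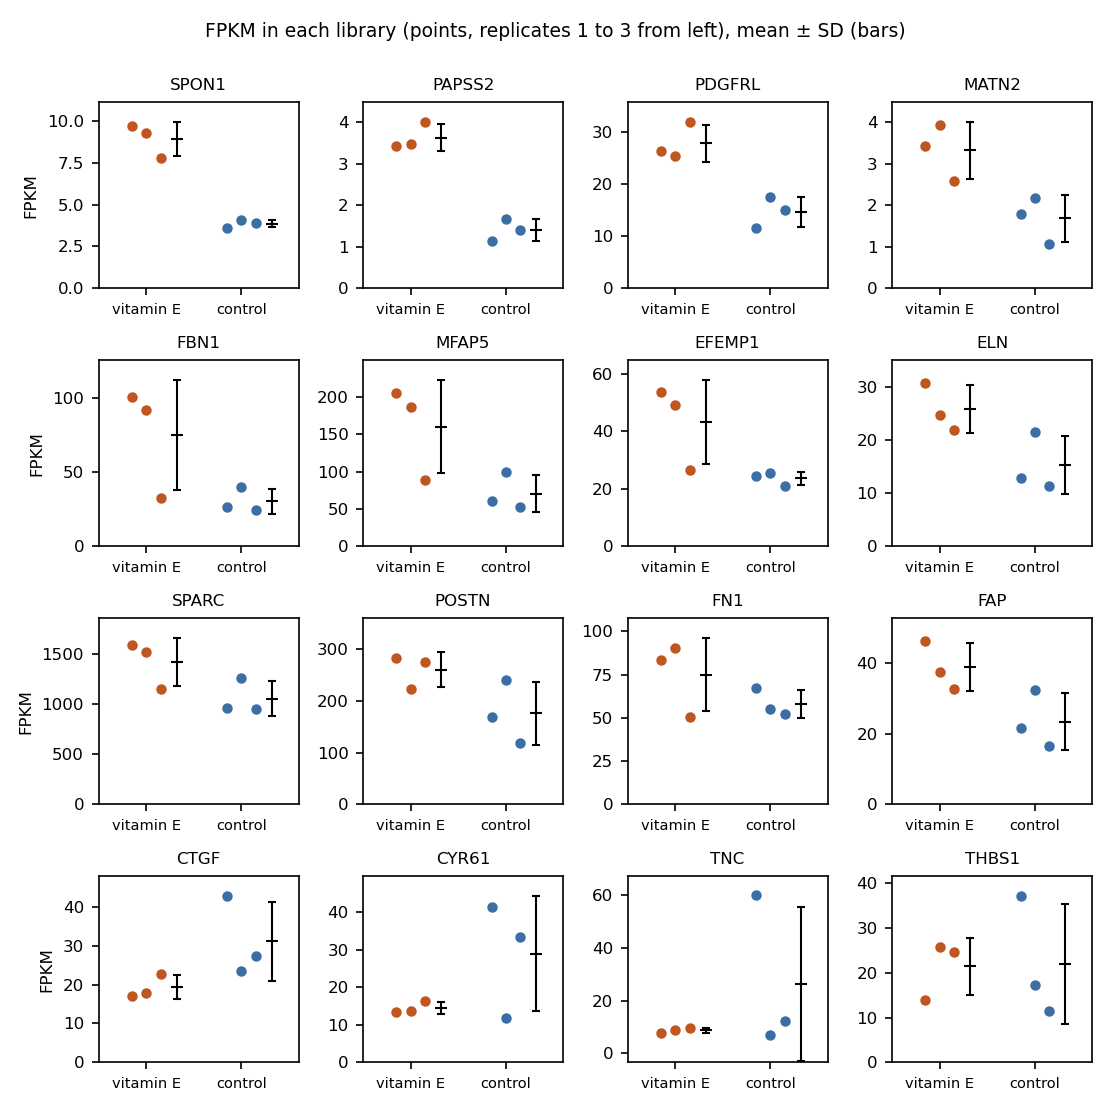
FPKM of 16 members in each library, on linear axes that differ between panels. Points are replicates 1 to 3 from left to right (orange, vitamin E; blue, control) and black bars are the mean ± SD (n = 3); SPON1 and PAPSS2 separate the groups, FBN1, MFAP5 and EFEMP1 are high in vitamin E replicates 1 and 2, and TNC is high in control replicate 1 at 60.05 FPKM.

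Genes of elastic fibres and microfibrils had mostly higher values with vitamin E, above all in replicates 1 and 2. Of 11 tested members 10 had a log2 difference above 0, against 54.2% of all tested genes, and 6 were higher at an unadjusted p under 0.05, against 5.97%. At that mark 0 were lower, against 3.14%, and the median difference was 0.57. FBN1, which encodes fibrillin-1, the main protein of microfibrils, had 100.1, 92.0 and 32.7 FPKM with vitamin E, against 26.6, 40.0 and 24.6 FPKM in controls. MFAP5, whose product binds to fibrillin in those microfibrils, had 206, 186 and 89.4 FPKM with vitamin E, against 60.5, 99.3 and 52.2 FPKM in controls. In both genes vitamin E replicates 1 and 2 were far above all other libraries, and vitamin E replicate 3 lay under control replicate 2. Their log2 differences were 1.15 ± 0.42 and 1.14 ± 0.36 (SE; limma, adjusted p = 0.482 and 0.425). Without vitamin E replicate 3 they were 1.66 and 1.51, and without vitamin E replicate 1 they were 0.87 and 0.92. Without control replicate 3 they were 1.02 and 0.95, and without control replicate 1 they were 1.07 and 1.06. FBN1 had no unadjusted p under 0.05 without either of these controls, and MFAP5 had none without control replicate 3. Both genes also lost that mark without vitamin E replicate 1 and without vitamin E replicate 2. The MFAP5 level was between 2.02 and 2.73 times the FBN1 level within every library, while FBN1 itself ranged from 24.6 to 100.1 FPKM across libraries. The level relative to FBN1 varied more for EFEMP1, from 0.53 to 0.92, and for ELN, from 0.27 to 0.67.

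EFEMP1, which encodes fibulin-3, had 53.7, 49.2 and 26.5 FPKM with vitamin E, against 24.3, 25.5 and 21.1 FPKM in controls. FBLN2 had 34.3, 35.7 and 21.7 FPKM with vitamin E, against 20.8, 22.1 and 16.7 FPKM in controls. In both of these fibulin genes vitamin E replicates 1 and 2 were above all other libraries. Vitamin E replicate 3 was just above the controls for EFEMP1 and under control replicate 2 for FBLN2. The log2 differences were 0.78 ± 0.26 for EFEMP1 and 0.57 ± 0.21 for FBLN2 (SE; limma, adjusted p = 0.446 and 0.484). Without control replicate 3 they were 0.70 and 0.46, both without an unadjusted p under 0.05. Both genes also lost that mark without vitamin E replicate 1 and without vitamin E replicate 2.

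ELN encodes elastin, the stretchable core of the fibre, and FBLN5 a fibulin needed for its assembly. ELN had 30.7, 24.7 and 21.9 FPKM with vitamin E, against 12.8, 21.5 and 11.4 FPKM in controls. FBLN5 had 16.0, 13.3 and 13.1 FPKM with vitamin E, against 5.68, 12.1 and 8.49 FPKM in controls. In both genes the groups did not overlap, and control replicate 2 came within a small margin of the lowest vitamin E library. The log2 differences were 0.76 ± 0.24 and 0.68 ± 0.24 (SE; limma, adjusted p = 0.426 and 0.470). Without vitamin E replicate 1 or control replicate 3 neither gene had an unadjusted p under 0.05.

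FBLN7, also a fibulin gene, had 3.12, 3.11 and 4.22 FPKM with vitamin E, against 3.65, 1.59 and 1.55 FPKM in controls. Control replicate 1 lay inside the vitamin E range. LTBP1, whose product ties latent TGF-beta to the matrix, averaged 8.25 ± 1.41 FPKM with vitamin E and 5.998 ± 1.56 FPKM in controls. MFAP2, which encodes another microfibril glycoprotein, averaged 8.30 ± 1.53 FPKM with vitamin E and 7.12 ± 2.08 FPKM in controls. FBLN1, another fibulin gene, averaged 6.88 ± 1.44 FPKM with vitamin E and 5.65 ± 2.39 FPKM in controls, and vitamin E replicate 2 lay under 2 of the controls. LTBP2, which encodes a relative of LTBP1 that binds fibrillin and no latent TGF-beta, averaged 16.5 ± 3.75 FPKM with vitamin E and 16.5 ± 2.20 FPKM in controls (SD, n = 3 each), with a 95% interval of the log2 difference from -0.45 to 0.41. None of these 5 genes had an unadjusted p under 0.05. LTBP1 did with the replicate number or the description digit as a block, with library quality weights and without control replicate 1 (0.56), and FBLN7 did with library quality weights (0.58) and without control replicate 1 (0.79). FBN2, the fibrillin gene that in mammals is used most before birth, was untested at 0.808, 0.771 and 1.02 FPKM with vitamin E, against 0.445, 0.798 and 0.540 FPKM in controls.

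Of the 4 members grouped by role under fibroblast and tendon cell surface, 3 were higher at an unadjusted p under 0.05, against 5.97% of all tested genes. The grouping does not show where each protein sits, and PDGFRL may not be a surface protein. PDGFRL, which encodes a protein related to the ligand-binding part of PDGF receptors, had 26.3, 25.4 and 31.9 FPKM with vitamin E, against 11.6, 17.5 and 14.9 FPKM in controls. Here vitamin E replicate 3 was the highest library, unlike in the microfibril genes. The log2 difference of PDGFRL was 0.89 ± 0.17 (SE; limma, adjusted p = 0.263), between 0.74 and 1.02 without single libraries. FAP, which encodes fibroblast activation protein, a surface protease, had 46.4, 37.6 and 32.8 FPKM with vitamin E, against 21.5, 32.4 and 16.5 FPKM in controls. PDGFRA, the receptor that marks the fibro-adipogenic cells of mammalian muscle, had 27.2, 22.0 and 19.6 FPKM with vitamin E, against 13.9, 20.1 and 13.01 FPKM in controls. FAP did not overlap between groups, while in PDGFRA control replicate 2 lay above vitamin E replicate 3. The log2 differences were 0.74 ± 0.25 for FAP and 0.53 ± 0.19 for PDGFRA (SE; limma, adjusted p = 0.446 and 0.479). Without control replicate 3 they were 0.53 and 0.42, and without vitamin E replicate 1 they were 0.61 and 0.41, with no unadjusted p under 0.05 in either gene. PDGFRA also lost that mark without vitamin E replicate 2 or control replicate 1.

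TNMD, which encodes tenomodulin, a surface protein of tendon cells, averaged 6.74 ± 4.53 FPKM with vitamin E and 7.61 ± 1.07 FPKM in controls (SD, n = 3 each). Vitamin E replicate 3, at 11.95 FPKM, was the highest library and the other 2 vitamin E libraries were the lowest. The log2 difference of TNMD was -0.30 with all libraries. Without vitamin E replicate 3 it was -0.74, with an unadjusted p under 0.05. The tendon list gave no common direction, with a median of -0.08. Of its 7 tested genes, 0 were higher and 1 was lower at an unadjusted p under 0.05, against 5.97% and 3.14% of all tested genes. Its lower gene was EGR1, an immediate early gene, at 15.1, 19.1 and 13.3 FPKM with vitamin E, against 49.2, 17.8 and 32.5 FPKM in controls. MKX, a tendon transcription factor, differed by 0.20. The summed level of the 7 genes was 154, 105 and 137 FPKM with vitamin E, against 206, 136 and 90.4 FPKM in controls. COMP alone gave 106, 69.5 and 87.2 FPKM of these sums with vitamin E, against 136, 75.1 and 39.0 FPKM in controls. SCX, the defining tendon factor, stayed at or under 0.885 FPKM in every library. In the cartilage list only MATN3 had a mean of 1 FPKM or more over the 6 libraries, with a log2 difference of 0.19, and ACAN stayed at or under 0.102 FPKM.

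PCOLCE and PCOLCE2 encode enhancers of the protease that trims procollagen so that it can form fibres. PCOLCE2 had 22.7, 17.6 and 13.4 FPKM with vitamin E, against 9.02, 14.9 and 7.90 FPKM in controls. Control replicate 2 lay above vitamin E replicate 3, and its log2 difference was 0.72 ± 0.26 (SE; limma, adjusted p = 0.479). Without control replicate 3 it was 0.55 and without control replicate 1 it was 0.64, both without an unadjusted p under 0.05. PCOLCE2 also lost that mark without vitamin E replicate 1 and without vitamin E replicate 2. PCOLCE averaged 11.2 ± 1.99 FPKM with vitamin E and 9.41 ± 2.08 FPKM in controls (SD, n = 3 each), with a 95% interval from -0.22 to 0.69.

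PAPSS2 encodes the enzyme that makes the activated sulfate used to sulfate proteoglycan chains. PAPSS2 (chromosome 6, 9642174 to 9672650) had 3.43, 3.47 and 4.01 FPKM with vitamin E, against 1.13, 1.67 and 1.41 FPKM in controls. Every vitamin E library stood well above every control, and the libraries of each group lay close together. Its log2 difference was 0.95 ± 0.14 (SE; limma, adjusted p = 0.249), between 0.87 and 1.03 without single libraries. On the scale of plain means, the vitamin E mean was 2.59 times the control mean. Its paralog PAPSS1 averaged 8.50 ± 1.16 FPKM with vitamin E and 7.01 ± 0.810 FPKM in controls (SD, n = 3 each). The 15 tested genes for sulfate supply and chain synthesis other than PAPSS2 had a median of 0.05. At an unadjusted p under 0.05, 1 was higher and 0 were lower, against 5.97% and 3.14% of all tested genes. The higher gene was CSGALNACT2, an enzyme of chondroitin synthesis, at 0.29, and the sulfate donor transporter SLC35B2 differed by -0.25. These 15 genes summed to between 70.0 and 92.6 FPKM with vitamin E and between 67.8 and 83.1 FPKM in controls.

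VCAN, which encodes the large chondroitin sulfate proteoglycan versican, averaged 4.39 ± 0.963 FPKM with vitamin E and 3.54 ± 0.720 FPKM in controls (SD, n = 3 each). The interval of its log2 difference ran from -0.18 to 0.66. HAPLN1, which encodes a link protein that ties such proteoglycans to hyaluronan, lies next to VCAN on chromosome Z (HAPLN1 62520556 to 62616640, VCAN 62650337 to 62756712). Its reads were 0, 0 and 0 with vitamin E, against 0, 2 and 1 in controls, too few for any comparison.

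Other markers of fibroblasts had the same direction as most members. Of 17 tested fibroblast markers that are not members, 12 were higher at an unadjusted p under 0.05, against 5.97% of all tested genes. At that mark 0 were lower, against 3.14%, and the median log2 difference was 0.54. In the same 12 the lowest vitamin E library was above the highest control, against 8.86%. These 12 were collagen genes, DCN, OGN, DPT and LOX. The groups overlapped in the rest, which were PDGFRB, THY1, CD34, LUM and PI16, with log2 differences of 0.02, 0.07, 0.33, 0.41 and 0.95. The collagen cross-linking enzyme gene LOX differed by 0.80 ± 0.16 and the fibrillar collagen gene COL5A2 by 0.56 ± 0.12 (SE; limma, adjusted p = 0.279 and 0.280). The summed level of these 17 genes was 3986, 3134 and 2907 FPKM with vitamin E, against 2143, 2373 and 2110.3 FPKM in controls. These are different genes measured in the same libraries, so they are no independent repeat of the comparison, and whether the members' differences reflect a larger share of fibroblast RNA was not tested.

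Markers of other cells in the muscle had medians closer to 0, apart from the red cell genes. Of all tested genes, 5.97% were higher and 3.14% were lower at an unadjusted p under 0.05. Muscle fibre genes had a median of -0.11, with 0 of 10 at an unadjusted p under 0.05, and TNNC2 and ACTN2 differed by -0.19 and -0.27. Their summed level was between 59121 and 67954 FPKM with vitamin E and between 64165 and 77480.1 FPKM in controls. Endothelial genes had a median of 0.15, with 1 of 10 higher, the tight junction gene CLDN5 at 0.53, followed by ESAM at 0.21. Smooth muscle and pericyte genes had a median of 0.01 with 0 of 9 at that mark, and CNN1 and DES differed by -1.43 and -0.48. Bulk RNA cannot tell whether the DES RNA came from these cells or from muscle fibres. Leukocyte genes had a median of 0.11 with 0 of 10 at that mark, and CD4 and CD3E differed by 0.30 and 0.20. Adipocyte genes had a median of 0.18 with 1 of 5 higher, FABP4 at 0.91, followed by LPL at 0.32.

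Endothelial genes summed to between 203 and 259 FPKM with vitamin E and between 167 and 236 FPKM in controls, and leukocyte genes to between 717 and 920.1 FPKM with vitamin E and between 510.0 and 1046 FPKM in controls. Smooth muscle and pericyte genes summed to between 1065 and 1705 FPKM with vitamin E and between 1193 and 2715 FPKM in controls. Most of that sum was DES, at 841 to 1532 FPKM with vitamin E and 1014 to 2380 FPKM in controls. It therefore says little of the other genes in the list, such as ACTA2, at 37.2 to 52.1 FPKM with vitamin E and 36.0 to 50.4 FPKM in controls. Adipocyte genes summed to between 241 and 374 FPKM with vitamin E and between 141 and 226 FPKM in controls. The adipocyte sums did not overlap, but most of each sum was FABP4, at 165 to 311 FPKM with vitamin E and 73.9 to 166 FPKM in controls. In every tested adipocyte gene, FABP4 among them, the groups overlapped. Red cell genes had a median of 0.64, with 2 of 3 higher at an unadjusted p under 0.05 (HBAA at 0.64 and HBAD at 0.76), against 5.97% of all tested genes. They summed to between 76.9 and 98.8 FPKM with vitamin E and between 35.3 and 73.2 FPKM in controls, and these sums did not overlap either. HBAA and HBAD are alpha globin genes of similar sequence and may share reads. Schwann cell genes had a median of 0.04 with 0 of 2 at that mark, MBP and PMP22, and summed to between 34.8 and 50.4 FPKM with vitamin E and between 35.5 and 59.8 FPKM in controls. The part of these cell types in the members' values was not tested.

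Receptors for the matrix showed no common direction. The 20 tested genes for integrins and other matrix receptors had a median of 0.05. At an unadjusted p under 0.05, 2 were higher and 0 lower, against 5.97% and 3.14% of all tested genes. The higher genes were CD36, a fatty acid transporter that also binds thrombospondin, at 1.18 ± 0.11 (SE; limma, adjusted p = 0.0656), and the syndecan gene SDC3, at 0.49. ITGAV and ITGB1, which encode integrin chains that bind fibronectin, differed by 0.04 and -0.07. The summed level of the 20 genes was 498, 513 and 495 FPKM with vitamin E, against 613, 445 and 462 FPKM in controls.

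TGF-beta is the main inducer of fibroblast matrix genes in mammals. The 15 tested ligands, receptors and SMAD pathway genes had a median of -0.19. At an unadjusted p under 0.05, 2 were higher and 1 was lower, against 5.97% and 3.14% of all tested genes. The higher genes were the co-receptors ENG and TGFBR3, at 0.41 ± 0.11 and 0.49 ± 0.16 (SE; limma, adjusted p = 0.382 and 0.441). The lower gene was SKIL, at -0.36. The summed level of the 15 genes was 223, 196 and 188 FPKM with vitamin E, against 385, 186 and 188 FPKM in controls. TGFB3 alone gave 83.8, 45.4 and 59.6 FPKM of these sums with vitamin E, against 236, 56.1 and 78.4 FPKM in controls. The ligand gene TGFB1 averaged 15.9 ± 1.78 FPKM with vitamin E and 17.2 ± 7.23 FPKM in controls (SD, n = 3 each).

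**Figure D3:**
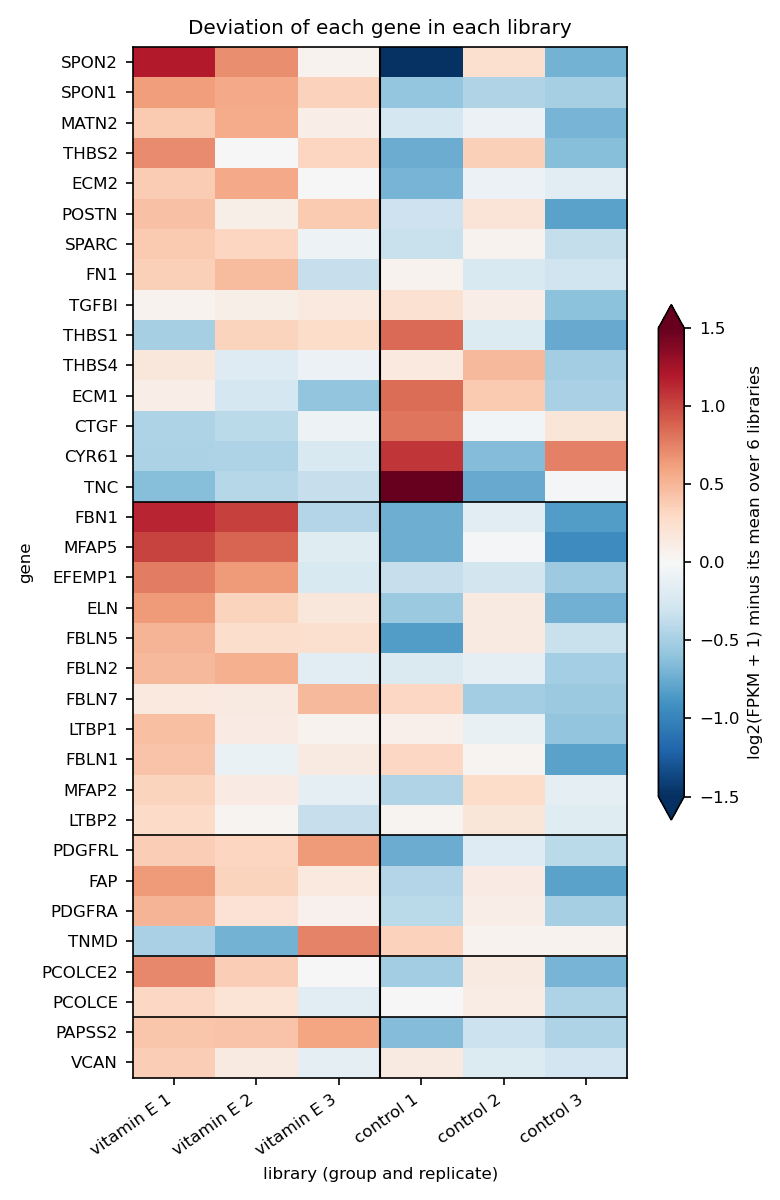
Deviation of each tested member in each library from its own mean over the 6 libraries, on the log2(FPKM + 1) scale, with vitamin E libraries left of controls and horizontal lines between roles. Red is above and blue below the mean, with colours saturated beyond 1.5; the first 2 vitamin E columns are mostly red, control replicate 3 is mostly blue, and control replicate 1 is red for CTGF, CYR61, TNC, THBS1 and ECM1.

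The libraries of each group did not carry the difference evenly. The members' mean deviation from the mean of all libraries was 0.35, 0.21 and 0.04 on the log2 scale with vitamin E, against -0.11, -0.04 and -0.45 in controls. Vitamin E replicates 1 and 2 both lay above all 4 other libraries in 18 of 34 members (52.9%), against 12.8% of all tested genes. Vitamin E replicates 1, 2 and 3 lay above every control in 25, 20 and 12 members (73.5%, 58.8% and 35.3%), against 30.1%, 31.6% and 22% of all tested genes. Control replicates 1, 2 and 3 lay below every vitamin E library in 19, 14 and 26 members (55.9%, 41.2% and 76.5%), against 31.8%, 25.6% and 38.1%. Control replicate 3 was the highest control in 0 of 34 members, against 23.8% of all tested genes. These patterns were chosen after the values were seen.

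The members' share of all FPKM was 0.557%, 0.506% and 0.392% with vitamin E, against 0.356%, 0.407% and 0.304% in controls. Vitamin E replicate 3 lay under control replicate 2, so the groups overlapped. For the elastic fibre genes alone the mean deviations were 0.56, 0.36 and -0.04 with vitamin E, against -0.29, -0.04 and -0.56 in controls. For the interstitial and matricellular glycoproteins they were 0.18, 0.13 and -0.01 with vitamin E, against 0.12, -0.05 and -0.38 in controls.

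**Figure D4:**
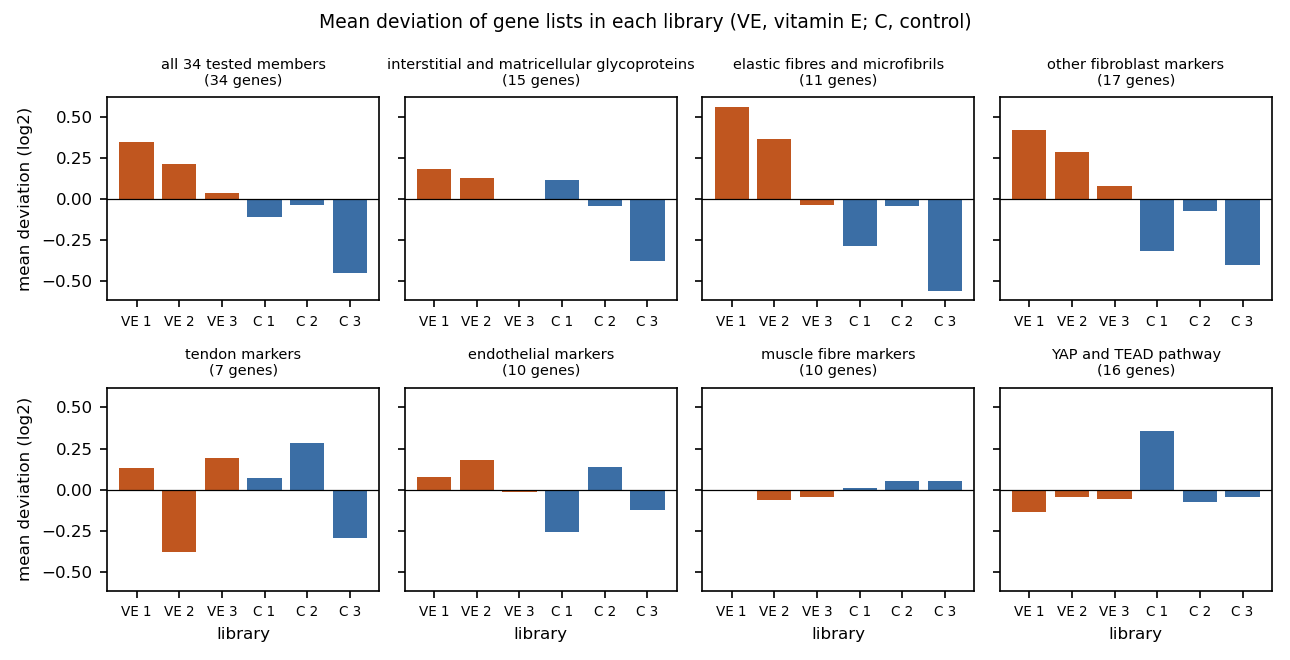
Mean deviation of each gene list in each library from the mean of the 6 libraries (log2 scale; orange, vitamin E replicates 1 to 3; blue, control replicates 1 to 3), with the number of tested genes. The elastic fibre list runs from 0.56 in vitamin E replicate 1 to -0.56 in control replicate 3, the other fibroblast markers show a like order, and muscle fibre markers stay near 0.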

How the data were processed

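Poly(A) RNA libraries were sequenced on an Illumina instrument, per the labels' protocols. The authors deposited FPKM values per gene and library, and TopHat2 2.0.12 is the tool listed in the submitters' processing notes. The labels do not state a counter, annotation, genome build or strand setting, so overlapping genes cannot be told apart. Positions are those of the deposited table, on sequence records of version 4 for the genes placed here. Chromosome names came from symbols shared with the GRCg7b gene table of RefSeq, with at least 94.4% of a record's symbols on 1 chromosome. Gene roles are background and no sequence was used.

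Read numbers, lengths of genes and totals of libraries were worked out from the steps of the deposited FPKM values for all 11320 tested genes. The implied length was whole within 0.05 for 99.1% of them before shared factors were restored. Every pair of libraries within a group differed by more than counting error (chi-square per degree of freedom from 21.6 to 112), so each was kept as 1 replicate. Deviations of same-numbered libraries had no common sign of correlation (Pearson correlation across genes of -0.13, 0.15 and 0.01), which does not exclude pairing. The numbers were used as a block only in an alternative.

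The 2 groups were compared by limma 3.58.1 in R 4.3.3, two-sided and with a trend over mean level. The test used log2(FPKM + 1) of genes averaging 1 FPKM or more, with Benjamini-Hochberg adjustment over all of them at 0.05. This scale understates differences of low genes. Statements of an unadjusted p refer to the same test, and n is 3 libraries per group. An exact permutation test of 3 against 3 cannot give a two-sided p under 0.1 and was not used. The method was also run on simulated data, and the outcome, with its power at this group size, is not given here. Alternatives were other pseudocounts, filters, scalings and limma options, both blocks, voom on the recovered reads and leaving out each library.

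The members and lists were chosen with earlier results of these data known. Per-library values were given for members with an unadjusted p under 0.05, without overlap, among the 4 most abundant, or among the 4 largest other differences. From each other list the 2 genes with the smallest p were named. ITGAV, ITGB1, SKIL, TGFB1, PAPSS1, ACTA1, SCX and ACAN were added after their values were seen. So were the fibroblast markers other than LOX and COL5A2, and ANKRD1, TGFB3, COMP and ACTA2 beside the summed levels. Figures were drawn with matplotlib 3.10.9.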

Additional observations from a re-analysis of the deposited data

How the results depend on the processing

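Of the 34 tested members, 29 kept the direction of their difference in every alternative that tested them, which was up to 19; the 5 FPKM minimum tested 27 members. The other 5 turned without single libraries: leaving out each library gave log2 differences from -0.28 to 0.52 for THBS1, from -0.36 to 0.15 for THBS4, from -0.17 to 0.15 for LTBP2, from -0.023 to 0.53 for FBLN1 and from -0.069 to 0.35 for TGFBI. The cause was not tested. No member had an adjusted p under 0.05 in any alternative; over all genes the count was 2 when the minimum was 5 FPKM (fewer genes tested) and 2 with voom on the recovered reads, against 0 as reported, where 676 genes were higher and 355 lower at an unadjusted p under 0.05. Leaving out each library, members higher at an unadjusted p under 0.05 numbered from 4 to 18 of 34, against 3.90% to 8.32% of all tested genes. Lower members numbered from 0 to 3 of 34, against 2.28% to 5.42%. Members without overlap then numbered from 9 to 20 of 34 higher, against 11.9% to 18.8% of all tested genes, and from 1 to 3 of 34 lower, against 8.98% to 12.9%. Other alternatives gave 15 to 19 members higher at an unadjusted p under 0.05, against 4.68% to 6.58% of all genes tested in them. SPARC lost an unadjusted p under 0.05 with no filter, all 3 scalings and voom, and POSTN with no filter, quantile normalization and the replicate block.

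Same-numbered deviations correlated at -0.13, 0.15 and 0.01, and those with different numbers at -0.17 to 0.14. Correlations of deviations from means of 3 libraries cannot settle whether the replicate numbers mark pairs. With the replicate block, of 34 members 17 were higher and 2 lower at an unadjusted p under 0.05, against 5.82% and 3.39% of all tested genes. With the description digit as a block they numbered 18 and 2, against 6.04% and 2.89%. With either block ECM1 was the second lower member. Among the members, HAPLN1 had too few reads for a comparison, and THBS4 had as few as 63 reads in a library.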

Other observations

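Control replicate 1 held the highest value of several other listed genes, which were chosen after their values were seen. The ligand gene TGFB3 had 83.8, 45.4 and 59.6 FPKM with vitamin E, against 236, 56.1 and 78.4 FPKM in controls. The smooth muscle gene CNN1 had 13.8, 13.1 and 9.91 FPKM with vitamin E, against 141, 12.6 and 22.0 FPKM in controls. The stretch-responsive muscle gene ANKRD1 had 253, 418 and 523 FPKM with vitamin E, against 1798, 347 and 595 FPKM in controls. The hyaluronan receptor gene CD44 and the syndecan gene SDC4 had 17.3 and 57.8 FPKM in that library, and the other 5 libraries lay at or under 7.41 and 21.8 FPKM. None of these 5 genes had an unadjusted p under 0.05 in limma.

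The collagen receptor gene ITGA11 had 5.03, 3.62 and 1.70 FPKM with vitamin E, against 0.679, 2.57 and 1.47 FPKM in controls. As in FBN1, vitamin E replicate 1 was highest and control replicate 2 lay above vitamin E replicate 3, and the gene was chosen after its values were seen. Its log2 difference was 0.78 ± 0.36 (SE; limma, adjusted p = 0.569).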
